A study of Oryza sativa with 24 samples.

Results

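The comparison concerns how far the transcript response to phosphate (Pi) deficiency differed between roots and shoots of PB1, the rice genotype that the study grew beside Dular as the one sensitive to low Pi. For each probe set, a short set of array probes that reports 1 transcript, the change in roots (−Pi minus +Pi) was set against the change in shoots (−Pi minus +Pi), and the 2 were subtracted. It used the 12 PB1 arrays of the 24 in the series and 57258 of 57381 probe sets, all but 123 control probe sets, and no measured value entered the choice. PB1 seedlings were raised for 15 days in Yoshida nutrient medium with 1 µM Pi (−Pi) or 320 µM Pi (+Pi), and total RNA of roots and of shoots was hybridized to Affymetrix rice genome arrays. The 4 groups were PB1 root −Pi, PB1 root +Pi, PB1 shoot −Pi and PB1 shoot +Pi, with 3 replicates each that the labels call biological. RNA of each replicate came from pooled tissue of 3 seedlings, and whether roots and shoots of 1 replicate came from the same seedlings is not given in the sources used here. PB1 is a single genotype at a single age, and the 12 Dular arrays of the same design served to show where PB1 differed. The Dular arrays also entered the centring of the values, an alternative fit and, through a list of the study, the naming of genes. P-values measure the spread between these arrays, and their number limits the precision.

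Plants sense low Pi through SPX proteins, which bind inositol pyrophosphates and hold back PHR transcription factors when Pi is plentiful. When Pi falls, PHR factors switch on Pi transporters, secreted phosphatases and ribonucleases, lipid remodelling enzymes that replace phospholipids with galactolipids and sulfolipids, and the noncoding RNA IPS1, which sequesters the microRNA that degrades the PHO2 transcript. Roots take up Pi from the medium, while shoots receive it through the xylem and recycle it among leaves, so that members of the response can be used differently in the 2 organs.

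Every value below is on the log2 scale after GC-RMA, with each probe set centred on its own median over the 24 arrays. A value of 0 is therefore that median and not absence of the transcript, and a probe set that stays at 0 on most arrays cannot be told apart from one at the background of the array. Nor can a group of arrays at a shared negative value, and a rise from such a value may be a lower bound. In bulk tissue, fewer cells of a type and less RNA per cell cannot be told apart. The 3 PB1 shoot −Pi arrays spread more than the rest, with root mean square deviations from their group mean of 0.340, 0.542 and 0.319, against 0.161 to 0.275 on the other 9 arrays. The widest, PB1 shoot −Pi replicate 2, correlated with its replicates at a mean r of 0.587 across probe sets. Poly-A spikes, foreign transcripts added to the RNA before labelling, had a median of -5.22 on PB1 shoot +Pi replicate 2 and of -0.89 to 0.26 on the other 11 arrays (36 probe sets). The part of these 2 arrays in the results was not tested apart from leaving each out. Of 7 root markers 6 were higher in roots than in shoots at both Pi levels, with Lsi2, a silicon efflux transporter, at a root minus shoot difference of 11.71 at −Pi and 12.26 at +Pi. SCR1 was the exception. Of 9 markers of photosynthetic tissue 8 were lower in roots, among them RCA, which encodes Rubisco activase, at -4.26 at −Pi and -3.65 at +Pi, while RBCS1 did not pass the test. None of these 16 markers had a Pi response that passed the test for a difference between root and shoot (16 tested with limma), and the largest in size was HMA2, a zinc transporter, at 1.57 (adjusted p = 0.357).

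The response differed between root and shoot in 1575 probe sets, 2.75% of those tested (limma, adjusted p of at most 0.05 by Benjamini-Hochberg over 57258 probe sets). The root change lay above the shoot change in 474 (0.828%) and below it in 1101 (1.92%). With a size of at least 2-fold also asked for, 796 remained (1.39%), 330 above (0.576%) and 466 below (0.814%). Calls below were more numerous but smaller, with a median of -0.87 against 1.46 for calls above. At 4-fold and more the order turned, with 155 above and 119 below, and at 16-fold and more there were 28 above and 9 below. Without PB1 root +Pi replicate 1 the 2-fold split was also turned, 397 above and 392 below. Over all probe sets the median difference was 0.006, and values ran between -5.34 and 8.30. A further 3139 of the 3935 probe sets that differed at least 2-fold did not pass the test. Leaving out PB1 shoot −Pi replicate 2 gave 1581 calls, of which 1167 were among the 1575, and leaving out PB1 shoot +Pi replicate 2 gave 1181, of which 1002 were. The count was lowest, at 905, without PB1 shoot +Pi replicate 1.

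Among calls with a change of at least 2-fold in either organ, a change in roots alone was the commonest pattern in both directions. Of the 474 calls above, 250 (52.7%) had a root change of 2-fold or more upward with a shoot change under 2-fold, at medians of 2.01 in roots and 0.06 in shoots. In another 28 both organs moved up at least 2-fold and roots more so, with medians of 5.22 in roots and 2.21 in shoots. A downward change in shoots alone accounted for 33, with a median of -1.54 in shoots and 0.12 in roots, 9 moved up in roots and down in shoots, and in 153 neither change reached 2-fold. Among the 1101 calls below, 425 (38.6%) had a downward change in roots alone, at medians of -1.50 in roots and -0.05 in shoots, and in 644 (58.5%) neither change reached 2-fold. Only 7 of the calls below moved up at least 2-fold in both organs and more so in shoots, with medians of 2.13 in roots and 5.67 in shoots. For each organ alone, limma called 2293 probe sets in roots (4.0%), with 1180 higher (2.06%) and 1113 lower (1.94%) at −Pi, and 381 in shoots (0.665%), with 218 higher (0.381%) and 163 lower (0.285%), at 2-fold or more. Both tests used a spread pooled over the 4 groups. Since the shoot −Pi arrays spread more than the rest, the error can be too small for shoots and too large for roots.

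**Figure D1:**
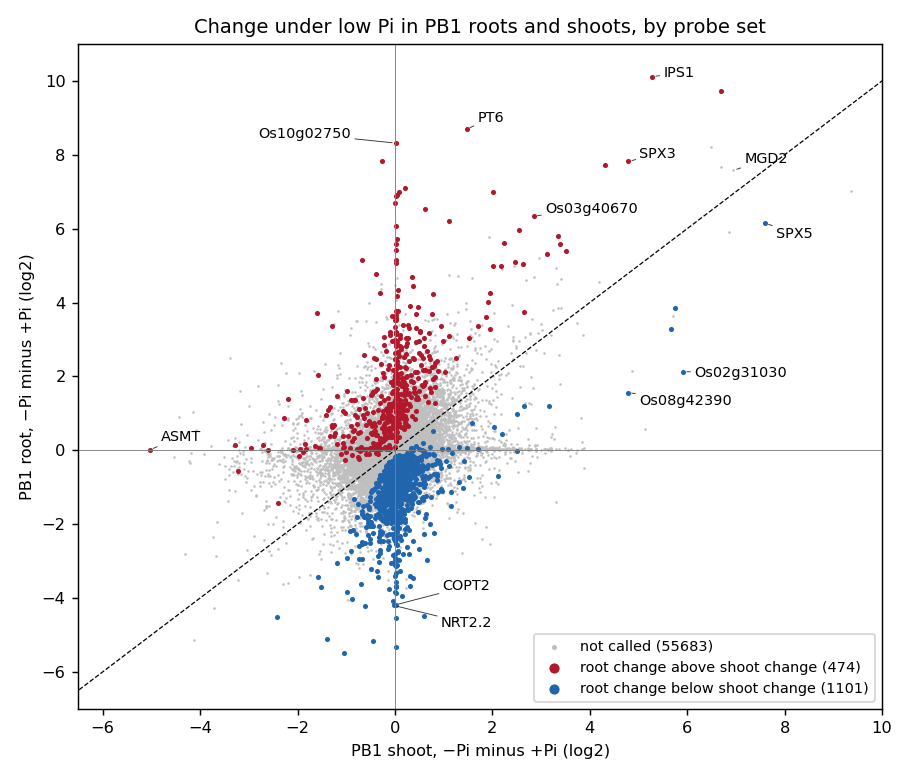
Change under low Pi (−Pi minus +Pi, log2) of each of 57258 probe sets in PB1 roots (vertical) and PB1 shoots (horizontal), n = 3 arrays per group. The dashed line marks equal changes, red points are the 474 called with the root change above the shoot change and blue points the 1101 called below; most coloured points lie along the vertical line of no change in shoots.

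Names could be given to a minority of the calls. A symbol or identifier was at hand for 163 of the 474 calls above and 137 of the 1101 below, and 1581 probe sets were named only through identifiers that the study lists for genes rising in Dular roots at −Pi. Named genes are thus weighted towards root rises. Of the genes that the study names by identifier 40 of 45 had a probe set, all found in that way or by symbol, and the lists of lipid, phosphatase and bypass genes below rest largely on them. That part of the lists was chosen on the Dular arrays of this series and is no independent evidence of a rise in roots.

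Genes of Pi signalling did not share 1 direction. Of 11 measured, 3 were called with the root change above the shoot change, 3 with it below and 5 did not pass the test. The median difference was -0.14, against 0.006 over all probe sets, of which 2.75% were called. IPS1 (Os03g05334), the noncoding RNA, had log2 values of 4.33, 4.38 and 4.11 in roots at −Pi, against -6.00, -5.77 and -5.74 in roots at +Pi, and of 2.11, 2.50 and 2.15 in shoots at −Pi, against -2.67, -3.40 and -3.02 in shoots at +Pi. The −Pi and +Pi arrays did not overlap in either organ, and the roots held both the highest and the lowest values. The rise was 10.11 in roots and 5.28 in shoots, a difference of 4.83 ± 0.26 (SE, 3 arrays in each group; adjusted p = 7e-05, limma). IPS1 kept a difference of 4.65 to 5.02 without any 1 of the 12 arrays.

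SPX genes encode the Pi sensor proteins, and their transcripts divided. SPX3 (Os10g25310) stood at 4.83, 5.15 and 4.64 in roots at −Pi, against -2.60, -2.67 and -3.56 in roots at +Pi, and at 2.50, 2.27 and 2.27 in shoots at −Pi, against -2.29, -2.46 and -2.59 in shoots at +Pi. Levels at +Pi were similar in the 2 organs, and the organs parted at −Pi. The root rise exceeded the shoot rise by 3.03 ± 0.35 (SE; adjusted p = 0.00377, limma). SPX5 (Os03g29250) ran the other way. Its values were 3.97, 4.11 and 3.82 in roots at −Pi, against -1.72, -2.29 and -2.53 in roots at +Pi, and 1.82, 1.72 and 1.77 in shoots at −Pi, against -5.82, -5.82 and -5.85 in shoots at +Pi. Roots were higher than shoots at both Pi levels, and the rise was 6.15 in roots and 7.60 in shoots (difference -1.45 ± 0.24 SE; adjusted p = 0.0189, limma). Whether the near-equal shoot +Pi values lie at the background of the array was not tested. The call was lost without PB1 shoot +Pi replicate 1 (-1.45, adjusted p = 0.0504 from limma), and a second SPX5 probe set gave -0.96 (adjusted p = 0.061 from limma).

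SPX1 (Os06g40120) rose by 3.75 in roots and 2.64 in shoots, a difference of 1.11 ± 0.19 (SE; adjusted p = 0.0191, limma) that did not pass without PB1 shoot +Pi replicate 1 (1.07, adjusted p = 0.0538) or after quantile normalization (0.64, adjusted p = 0.355). SPX2 (Os02g10780) rose by 3.12 in roots and 3.21 in shoots, and the difference of -0.09 had a 95% interval of -1.64 to 1.46. In shoots at −Pi SPX2 read 2.64, 0.44 and 2.25, with replicate 2 apart, and without that array the difference was -0.76. SPX4, the gene of a cytosolic partner of PHR2, changed by -0.60 in roots and -0.46 in shoots (difference -0.14, 95% interval -0.63 to 0.36). PHR2, the central transcription factor gene, changed by -0.32 in roots and -0.02 in shoots. Its difference of -0.30 ± 0.06 (SE; adjusted p = 0.0494, limma) lost its call without any 1 of 10 arrays. SIZ1, which encodes a SUMO ligase, changed by -0.39 in roots and 0.16 in shoots. The SIZ1 difference of -0.55 ± 0.10 (SE; adjusted p = 0.0246, limma) lost its call without any 1 of 7 arrays.

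**Figure D2:**
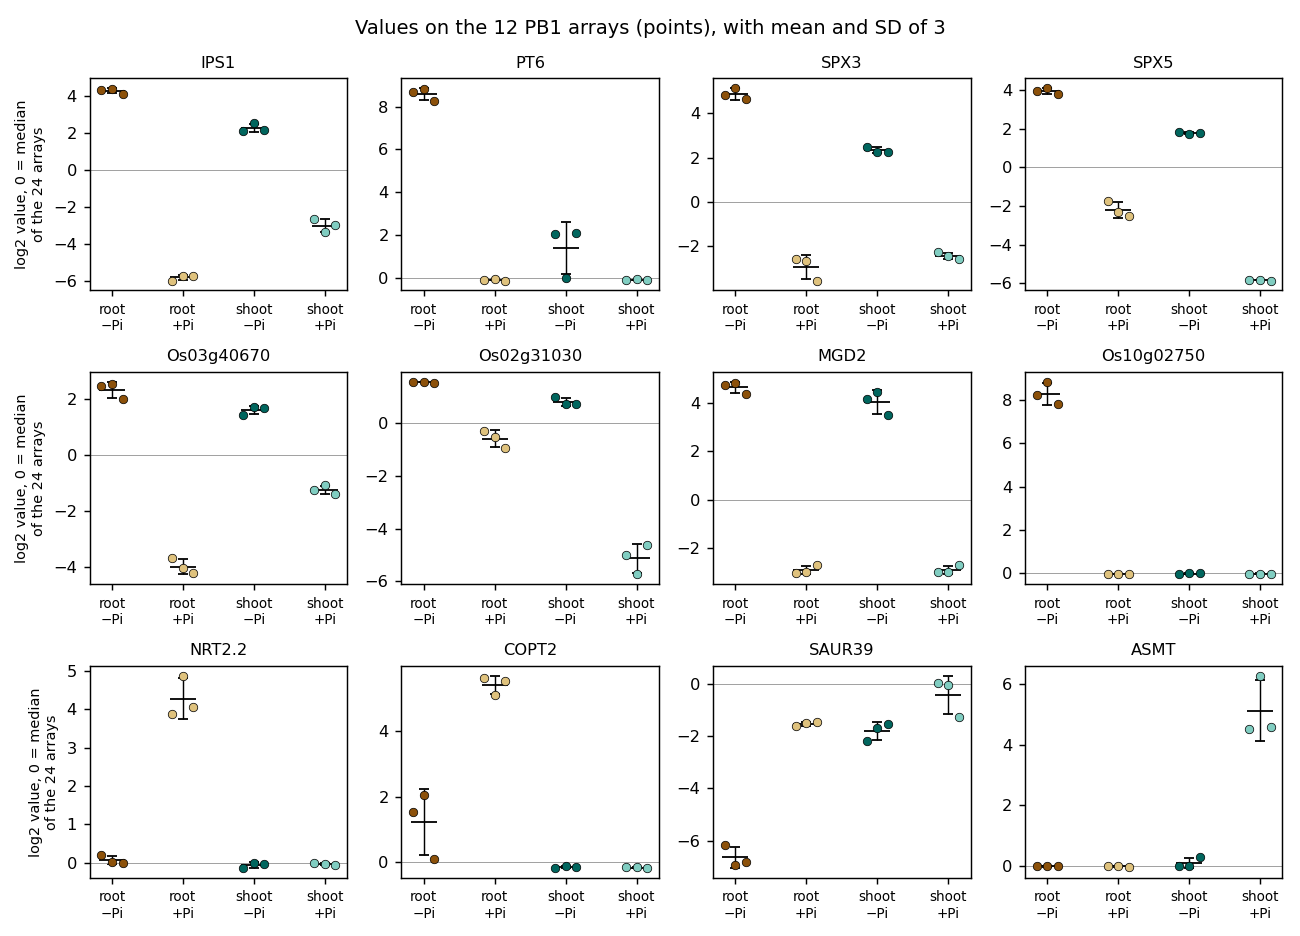
Centred log2 values on the 12 PB1 arrays (points) with the mean and SD of 3 arrays for 12 genes; within each panel roots stand left of shoots and −Pi left of +Pi, and 0 is the median of the 24 arrays. IPS1 and SPX3 rose further in roots, SPX5 and Os02g31030 further in shoots, MGD2 by 7.58 in roots and 6.95 in shoots, and NRT2.2 and COPT2 fell in roots alone.

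Of 11 Pi transport genes, limma called 2 with the root change above the shoot change (0.828% of all probe sets). None was called below (1.92%), and 3 had an unadjusted p under 0.05 by limma. PT6 (Os08g45000), a Pi transporter of the PHT1 family, had values of 8.67, 8.82 and 8.26 in roots at −Pi, against -0.10, -0.09 and -0.14 in roots at +Pi, and of 2.05, -0.03 and 2.10 in shoots at −Pi, against -0.10, -0.09 and -0.11 in shoots at +Pi. All 3 root −Pi arrays were far above every other array. In shoots at −Pi, replicates 1 and 3 were well above the +Pi arrays, while replicate 2, at -0.03, was close to them. The difference was 7.22 ± 0.69 (SE; adjusted p = 0.00164, limma), and 6.52 without PB1 shoot −Pi replicate 2. PHO1-3 (Os06g29790), whose family exports Pi to the xylem, rose by 4.99 in roots and 2.18 in shoots, a difference of 2.81 ± 0.52 (SE; adjusted p = 0.0275, limma). Its size stayed between 2.50 and 3.18 without any 1 array, but the call was lost without any 1 of 8 arrays, after quantile normalization (2.49, adjusted p = 0.115) and without moderation (adjusted p = 0.0501 by limma). PT2 (Os03g05640), a low-affinity transporter, rose by 1.97 in roots and changed by 0.08 in shoots, and the difference of 1.89 did not pass (adjusted p = 0.0974, limma). PT8 was flat on all 12 arrays, with a difference of 0.01 (95% interval -0.04 to 0.06), and 2 other PT8 probe sets gave 0.29 and 0.42. Outside the list, Os06g21920, which the study annotates as inorganic phosphate transporter 1-9, changed by 2.66 in roots and 0.06 in shoots. Its difference of 2.60 ± 0.54 (SE; adjusted p = 0.0428, limma) lost its call without any 1 of 10 arrays.

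Every call among the listed genes that release Pi from organic compounds had the larger change in roots. Most of these genes came from the study's list of genes rising in Dular roots, so this direction is no independent evidence. Of 7 phosphatase and ribonuclease genes, 4 were called with the root change above the shoot change and none below by limma (6 had an unadjusted p under 0.05), at a median difference of 1.99. Over all probe sets 0.828% were called above and 1.92% below. Os10g02750, annotated as a Ser/Thr protein phosphatase family protein, showed the largest difference of all probe sets. Its values were 8.22, 8.84 and 7.80 in roots at −Pi, against -0.03, -0.02 and -0.04 in roots at +Pi, and -0.01, 0.00 and 0.00 in shoots at −Pi, against -0.01, -0.01 and -0.04 in shoots at +Pi. Only the 3 root −Pi arrays left the baseline. The difference was 8.30 ± 0.29 (SE; adjusted p = 7.19e-06, limma). Os08g17784, a purple acid phosphatase gene, read 5.83, 6.16 and 5.87 in roots at −Pi, against -2.00, -2.26 and -1.09 in roots at +Pi, and 4.67, 3.57 and 4.52 in shoots at −Pi, against 0.09, -0.33 and 0.06 in shoots at +Pi. Both organs separated by Pi, and roots had the higher −Pi and the lower +Pi level. The rise was 7.73 in roots and 4.32 in shoots (difference 3.42 ± 0.50 SE; adjusted p = 0.0108, limma), while a second probe set of this gene gave 0.81. The phosphocholine phosphatase gene Os01g52230 rose by 5.58 in roots and 3.39 in shoots. Its difference of 2.19 ± 0.38 (SE; adjusted p = 0.0209, limma) did not pass without PB1 root −Pi replicate 2 (2.17, adjusted p = 0.0538) or PB1 shoot +Pi replicate 1 (2.22, adjusted p = 0.0531), with the spread of all 24 arrays (adjusted p = 0.0546) or after quantile normalization (1.43, adjusted p = 0.232). The T2 ribonuclease gene Os08g33710 rose by 3.11 in roots and 1.12 in shoots (difference 1.99 ± 0.32 SE; adjusted p = 0.0167, limma), and the ribonuclease genes Os01g67180 (0.55) and Os01g67190 (0.63) did not pass.

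Lipid remodelling genes were called in both directions, 5 of 21 with the root change above the shoot change (0.828% of all probe sets) and 2 with it below (1.92%), at a median difference of 0.26. The called sulfolipid genes had the larger change in roots. SQD1 (Os05g32140), which makes UDP-sulfoquinovose, had values of 0.18, 0.34 and 0.33 in roots at −Pi, against -2.72, -2.78 and -2.77 in roots at +Pi, and of 1.21, 1.17 and 1.19 in shoots at −Pi, against -0.26, -0.48 and -0.27 in shoots at +Pi. Shoots lay above roots at both Pi levels, and the rise was 3.04 in roots and 1.53 in shoots (difference 1.51 ± 0.09 SE; adjusted p = 0.000129, limma). The SQD2 genes, which encode sulfolipid synthases, differed by 2.46 ± 0.29 (SE) for Os01g04920 and by 1.56 ± 0.14 (SE) for Os07g01030 (adjusted p = 0.00393 and 0.00122, limma), although a second probe set of Os07g01030 gave 0.13. All 3 of these differences passed without any 1 of the 12 arrays.

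Among galactolipid synthase genes only MGD1 had a called difference. MGD2 (Os08g20420) read 4.74, 4.83 and 4.39 in roots at −Pi, against -3.03, -3.02 and -2.72 in roots at +Pi, and 4.16, 4.46 and 3.49 in shoots at −Pi, against -2.99, -3.01 and -2.72 in shoots at +Pi. The −Pi arrays of both organs formed 1 high group and the +Pi arrays 1 low group. Whether the near-equal +Pi values lie at the background of the array was not tested, so similar rises need not mean similar responses. The difference was 0.63 with a 95% interval of -0.12 to 1.38 (adjusted p = 0.545, limma). MGD3 rose by 1.12 in roots and 1.04 in shoots (difference 0.08, 95% interval -0.37 to 0.53). The DGD2 genes, which encode digalactolipid synthases, differed by 0.22 for Os03g11560 and -0.74 for Os04g34000 without passing the test. MGD1, the chloroplast enzyme gene, changed by 0.38 in roots and -0.20 in shoots, a difference of 0.58 ± 0.10 (SE; adjusted p = 0.0194, limma).

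Glycerophosphodiester phosphodiesterases (GDPD), which hydrolyse the glycerophosphodiesters left from phospholipids, were divided between the organs. Os03g40670 had values of 2.47, 2.54 and 2.00 in roots at −Pi, against -3.70, -4.07 and -4.24 in roots at +Pi, and of 1.44, 1.71 and 1.69 in shoots at −Pi, against -1.25, -1.09 and -1.38 in shoots at +Pi. Its rise was 6.34 in roots and 2.86 in shoots (difference 3.48 ± 0.25 SE; adjusted p = 0.000391, limma). Os02g31030 showed the reverse. It read 1.54, 1.54 and 1.52 in roots at −Pi, against -0.30, -0.55 and -0.94 in roots at +Pi, and 0.96, 0.71 and 0.71 in shoots at −Pi, against -5.01, -5.73 and -4.64 in shoots at +Pi. Levels at −Pi were within 1 log2 unit of each other, and the shoots at +Pi stood lowest. The rise was 2.13 in roots and 5.92 in shoots (difference -3.79 ± 0.36 SE; adjusted p = 0.00164, limma). Os08g42390 rose by 1.56 in roots and 4.79 in shoots (difference -3.22 ± 0.30 SE; adjusted p = 0.0015, limma), and Os01g55780 differed by 0.26 without passing. Phospholipase D genes Os06g40170 (0.95) and Os06g40180 (0.99) and the phospholipase C gene Os03g30130 (-0.15) had no called difference.

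Outside these pathways, most of the largest differences with a named gene were root rises beside shoot changes that did not pass the test. Os12g36840, which the annotation places in the Bet v I family of defence proteins, read 8.16, 8.88 and 8.04 in roots at −Pi, against 0.73, 0.78 and 0.03 in roots at +Pi, and -0.17, -0.06 and -0.01 in shoots at −Pi, against 0.70, 0.02 and -0.19 in shoots at +Pi. The root −Pi arrays stood apart from the other 9, and the shoot groups overlapped. The difference was 8.10 ± 0.43 (SE; adjusted p = 7e-05, limma). Os05g12400, a BURP domain gene, read 1.71, 1.44 and 0.93 in roots at −Pi, against -4.77, -6.85 and -5.57 in roots at +Pi, which lay far below all other arrays, and shoots lay between -0.01 and 1.16 (difference 6.89 ± 0.72 SE; adjusted p = 0.00247, limma). The NADP-dependent oxidoreductase gene Os06g40070 differed by 6.86 ± 0.15, the cytochrome P450 gene Os02g09200 by 5.39 ± 0.21 and the carotenoid cleavage dioxygenase gene Os09g15240 by 5.05 ± 0.36 (SE; adjusted p = 3.46e-07, 1.1e-05 and 0.000356, limma). Shoot values of these 3 genes lay between -0.08 and 0.01 at both Pi levels, while Os09g15240 already read 3.17, 2.24 and 3.38 in roots at +Pi.

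Gibberellin biosynthesis genes were among these root rises. Os04g55070, annotated as gibberellin 20 oxidase 2, read 5.95, 5.56 and 5.23 in roots at −Pi, against -0.13, -0.13 and -0.18 in roots at +Pi, and -0.01, 0.02 and 0.01 in shoots at −Pi, against 0.00, 0.00 and -0.12 in shoots at +Pi (difference 5.68 ± 0.20 SE; adjusted p = 7.19e-06, limma). CPS1 (Os02g17780), an early diterpene cyclase gene of the same pathway, stood at 2.43, 2.42 and 1.81 in roots at −Pi, against -4.89, -2.50 and -1.40 in roots at +Pi. Its root +Pi arrays spread over more than 3 log2 units. The difference of 5.83 ± 1.01 (SE; adjusted p = 0.0209, limma) did not pass without replicate 1 (5.72) or replicate 2 (5.73) of roots at −Pi, nor without PB1 shoot +Pi replicate 1 (5.82), at adjusted p of 0.0514 to 0.0559 by limma. The kinase gene Os06g18820 differed by 4.98 ± 0.81 and the alpha/beta fold hydrolase gene Os05g51240 by 4.55 ± 0.34 (SE; adjusted p = 0.0162 and 0.000491, limma).

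ASMT, which encodes acetylserotonin O-methyltransferase of melatonin synthesis, was the 1 of the 12 largest differences above with a described gene that arose in shoots. The 6 root arrays lay between -0.04 and 0.00, while shoots read -0.01, 0.00 and 0.29 at −Pi, against 4.51, 6.28 and 4.59 at +Pi. The transcript fell by 5.03 in shoots, with a root change of 0.01 (difference 5.04 ± 0.56 SE; adjusted p = 0.00327, limma).

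Calls among nitrogen uptake and assimilation genes ran in 1 direction. Of 16 genes 4 were called with the root change below the shoot change and none above by limma (7 had an unadjusted p under 0.05), at a median of -0.56. Calls below were also the more frequent over all probe sets, at 1.92% against 0.828% above. NRT2.2, whose product takes up nitrate with high affinity, had values of 0.20, 0.01 and 0.00 in roots at −Pi, against 3.88, 4.88 and 4.06 in roots at +Pi, and of -0.14, -0.01 and -0.02 in shoots at −Pi, against 0.00, -0.03 and -0.07 in shoots at +Pi. The root +Pi arrays alone were high. The difference was -4.18 ± 0.30 (SE; adjusted p = 0.000391, limma), on a probe set that may also bind transcripts of the near-identical NRT2.1. NIA1, the gene of nitrate reductase, fell by 3.06 in roots and 1.19 in shoots (difference -1.87 ± 0.20 SE; adjusted p = 0.00247, limma), although a second NIA1 probe set gave 0.02. AMT1;1, an ammonium transporter gene, fell by 1.22 in roots and changed by 0.16 in shoots (difference -1.38 ± 0.22 SE; adjusted p = 0.0161, limma), with -0.57 on a second probe set, and AMT1-2 at -2.01 did not pass (adjusted p = 0.0693, limma). GS2, plastidic glutamine synthetase, differed by -0.63 ± 0.09 (SE; adjusted p = 0.0112, limma), a call that was lost after quantile normalization, at -0.40, and on a second probe set, at -0.02.

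The called copper and zinc transporter genes all fell in roots. Of 41 metal transport genes outside iron acquisition, 5 were called below (1.92% of all probe sets) and 1 above (0.828%), at a median of -0.19. COPT2, a copper transporter gene, read 1.53, 2.05 and 0.11 in roots at −Pi, against 5.62, 5.10 and 5.53 in roots at +Pi, and -0.18, -0.13 and -0.14 in shoots at −Pi, against -0.16, -0.16 and -0.17 in shoots at +Pi. Every root −Pi array was below every root +Pi array, and shoots were flat. The difference was -4.20 ± 0.57 (SE; adjusted p = 0.00824, limma). COPT1 differed by -1.84 ± 0.24 and ZIP5, a zinc transporter gene, by -1.85 ± 0.28 (SE; adjusted p = 0.00717 and 0.0118, limma), each from a root fall with a shoot change under 0.2. ZIP1 differed by -1.47 and was not called without replicate 2 of roots at −Pi (-1.45) or replicate 2 of roots at +Pi (-1.43). ZIP7 at -0.77 lost its call without any 1 of 10 arrays, and NRAMP4, a metal ion transporter gene, was the call above at 0.73 ± 0.12 (SE; adjusted p = 0.0168, limma), while its 4 other probe sets, at 0.39 to 0.76, were not called (adjusted p = 0.29 to 0.904).

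Other large differences below were mostly root falls of hormone, wall and regulator genes. SAUR39, an auxin-responsive gene, read -6.17, -6.94 and -6.81 in roots at −Pi, against -1.61, -1.52 and -1.48 in roots at +Pi, and -2.20, -1.70 and -1.54 in shoots at −Pi, against 0.04, -0.04 and -1.26 in shoots at +Pi. Both organs were lower at −Pi, roots by 5.11, and the shoot change of -1.39 did not pass the test by itself. The difference was -3.71 ± 0.50 (SE; adjusted p = 0.00776, limma). CSLF7, a cellulose synthase-like gene, differed by -3.05 ± 0.42, ETR2, an ethylene receptor gene, by -2.88 ± 0.30, and MYBS1, a sugar-responsive MYB factor gene, by -2.39 ± 0.17 (SE; adjusted p = 0.00896, 0.00254 and 0.000293, limma). Other probe sets gave -0.87 for ETR2, and -0.07, -0.45 and -0.10 for APX2, a cytosolic ascorbate peroxidase gene called at -2.41. HAP3I, a subunit gene of the NF-Y transcription factor, differed by -2.31 and lost its call without PB1 root −Pi replicate 2 (-2.19, adjusted p = 0.051 from limma). CIPK10, a kinase gene of calcium signalling, differed by -2.22 ± 0.37 (SE; adjusted p = 0.0183, limma). Its call was lost after quantile normalization (adjusted p = 0.061) and on 2 other probe sets, at -2.34 (adjusted p = 0.141) and -1.95 (adjusted p = 0.0695). CPDK2, a calcium-dependent kinase gene, changed by -1.10 in roots and 0.96 in shoots. Its difference of -2.07 had a call that was lost without any 1 of 10 arrays.

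Many lists held no called member, although limma at an unadjusted p under 0.05 passed a few. These were 7 glycolytic bypass and organic acid genes (1 at an unadjusted p under 0.05), 18 iron acquisition genes (5), 26 potassium transport genes (3), 25 aquaporins (1), 17 JAZ jasmonate repressors (3), 5 DREB1 factors (0), 44 heat shock genes (3) and 20 cytosolic ribosomal protein genes (3). Their median differences lay between -0.07 for potassium transport and 0.54 for the JAZ genes. Of 81 cell wall genes 2 were called above, among them CESA5 at 0.88 ± 0.14 (SE; adjusted p = 0.0148, limma), and 3 below, CSLF7 included. Phenylpropanoid genes had 1 call in 8, 4CL1 at -0.95, whose call was lost without any 1 of 7 arrays. In the photosynthesis list 1 of 15 was called, the glycolate oxidase gene GLO5 at 1.84, while 2 other GLO5 probe sets gave -1.39 and -1.44, so that no direction can be given for it. Over all lists 36 of 373 genes were called, 18 above and 18 below, against 2.75% of all probe sets, 0.828% above and 1.92% below. The lists were chosen with earlier results of these data known, and in part on the Dular arrays. These shares are therefore a description and no evidence of enrichment.

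**Figure D3:**
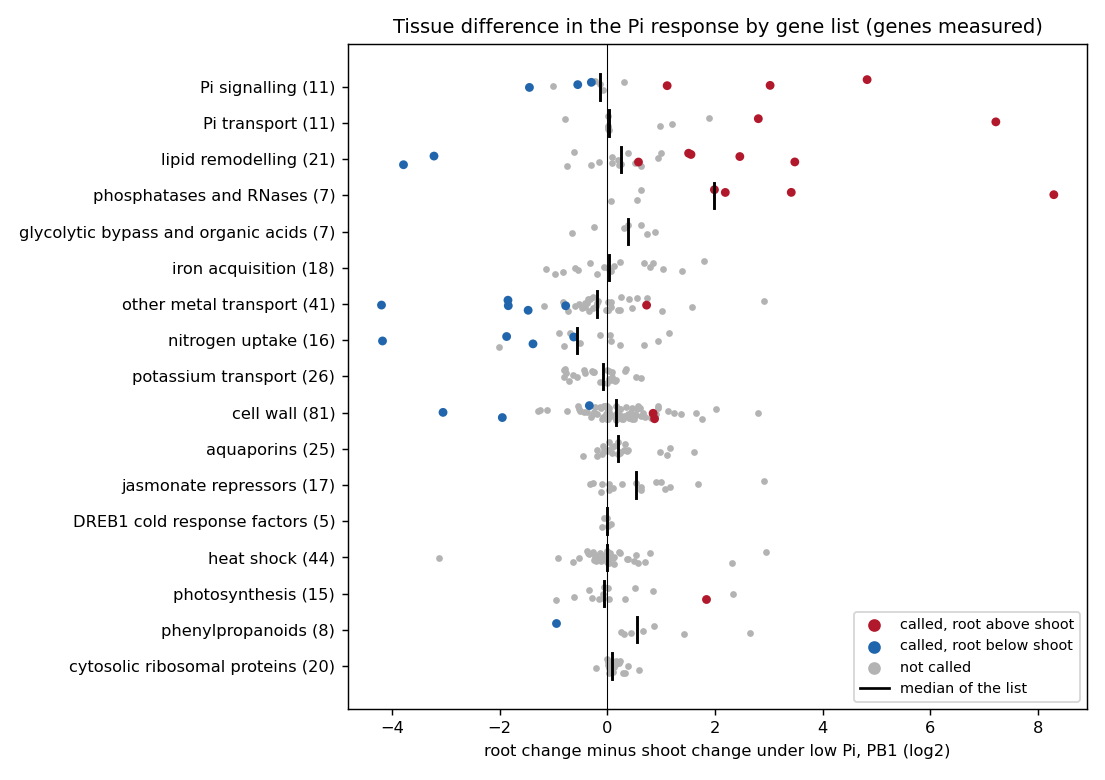
Tissue difference in the PB1 Pi response (root change minus shoot change, log2) of each gene in 17 lists, 1 point per gene, with the number of genes measured in parentheses and the list median as a bar. Coloured points passed limma's test. In the phosphatase and RNase list 4 of 7 are coloured, all above 0, and in the nitrogen list 4 of 16, all below it.

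Calls in PB1 only partly recurred in Dular, whose arrays are separate. The tissue difference had the same sign in Dular for 1160 of the 1575 PB1 calls (73.7%), against 42.0% of all probe sets. In Dular itself limma called 4655 probe sets (8.13%), and 453 were called in both genotypes, 28.8% of the PB1 calls and 9.73% of the Dular calls. Of these 392 had the same sign and 61 the opposite. Across the 1575 PB1 calls Pearson r between the genotypes' differences was 0.58, given as a description over probe sets, which are not independent. Tested directly, the tissue difference itself differed between PB1 and Dular in 2104 probe sets (3.67%), with the PB1 value above the Dular value in 1072 (1.87%) and below it in 1032 (1.8%), and 502 of these were among the 1575. After median centring the majority was turned, 976 above and 1251 below.

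IPS1 and PT6 were not called as different between genotypes, with differences of 4.83 in PB1 and 4.25 in Dular for IPS1, and 7.22 in PB1 and 6.45 in Dular for PT6. The purple acid phosphatase gene Os08g17784 had the larger tissue difference in PB1, by 2.64 ± 0.64 (SE; adjusted p = 0.028, limma), with 3.42 in PB1 and 0.78 in Dular. Os03g40670 differed less in PB1, by 3.48 there and 7.13 in Dular (PB1 minus Dular -3.64 ± 0.71 SE; adjusted p = 0.0062, limma). NRT2.2 took opposite signs, -4.18 in PB1 and 1.19 in Dular (-5.36 ± 0.34 SE; adjusted p = 5.92e-08, limma). The copper transporter gene COPT2 differed by -4.20 in PB1 and -0.73 in Dular (-3.47 ± 0.67 SE; adjusted p = 0.0052, limma), and COPT1 by -1.84 in PB1 and -0.15 in Dular (-1.70 ± 0.33 SE; adjusted p = 0.00539, limma).

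Of 18 iron acquisition genes, none of them called within PB1 by limma (5 at an unadjusted p under 0.05), 4 were called as different from Dular, all with the PB1 value above the Dular value (1.87% of all probe sets). These were NAS1, NAS2, YSL15 and IRO3. NAS1, which makes the iron chelator nicotianamine, read 12.1, 10.47 and 12.63 in PB1 roots at −Pi, against 11.82, 10.57 and 8.54 in PB1 roots at +Pi, and between -0.08 and 0.00 in PB1 shoots. The PB1 root groups overlapped and spread over 4 log2 units. The tissue difference was 1.39 in PB1 (95% interval -1.12 to 3.90) and -9.10 in Dular, and PB1 minus Dular was 10.49 ± 1.24 (SE; adjusted p = 5.84e-05, limma). NAS2 differed by 0.68 in PB1 and -8.26 in Dular, and YSL15, the iron(III)-phytosiderophore transporter gene, by -0.33 in PB1 and -7.04 in Dular. Their PB1 intervals, -3.27 to 4.62 for NAS2 and -3.53 to 2.88 for YSL15, were wide.

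**Figure D4:**
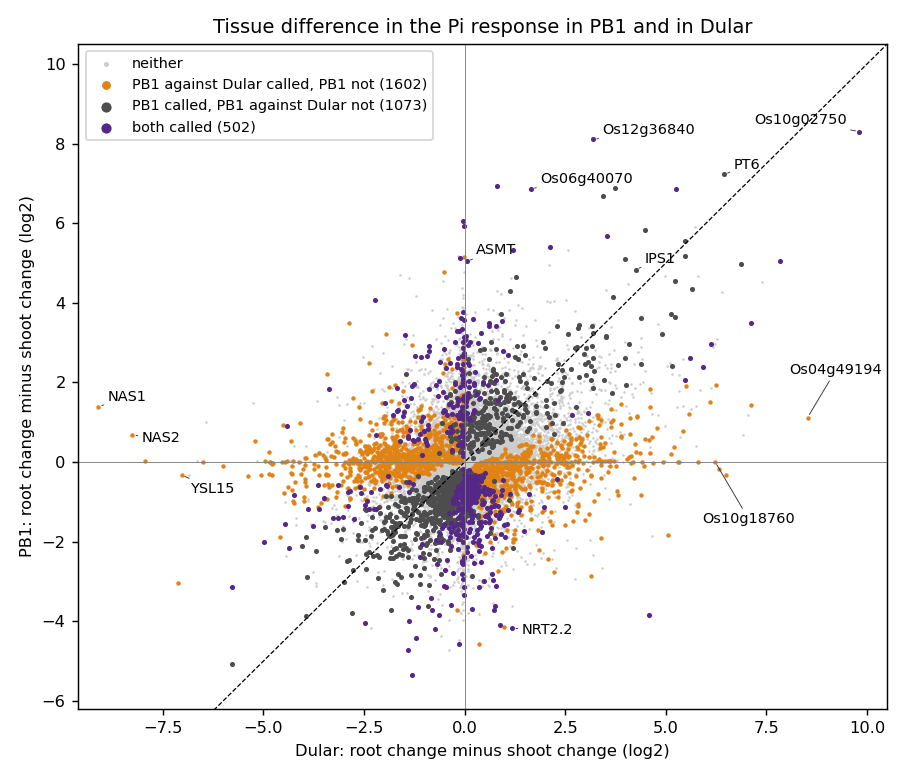
Tissue difference in the Pi response (root change minus shoot change, log2) in PB1 (vertical) and in Dular (horizontal) for 57258 probe sets. Purple points (502) were called in PB1 and as different between genotypes, dark grey (1073) only in PB1 and orange (1602) only between genotypes; NAS1, NAS2 and YSL15 lie far left near 0 on the PB1 axis.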

How the data were processed

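Transcripts were measured on 24 Affymetrix rice arrays, of which the 12 PB1 arrays form the comparison. The authors deposited log2 values from GC-RMA (GeneSpring), each probe set centred on its median, so that neither a level nor a filter on signal was possible. After 123 control probe sets were left out, limma (version 3.58.1, R 4.3.3) with lmFit, contrasts.fit and eBayes fitted the 4 PB1 group means to 57258 probe sets. The contrast was (root −Pi minus root +Pi) minus (shoot −Pi minus shoot +Pi), and calls had a Benjamini-Hochberg adjusted p no higher than 0.05. PB1 against Dular used all 24 arrays. Prior degrees of freedom were 0.779, so moderation was weak. A probe set with 1 annotated gene was named by symbol or study identifier (22436 had 1 gene, 95 several and 34727 none). For a list gene with several probe sets, the first by suffix was used. Genes named are the 12 largest called differences each way with a described gene (IPS1, listed only as an expressed protein, falls outside) and a sign that stays without any 1 array, the 10 largest PB1 against Dular, genes the study names, and list members. Members and lists were chosen with earlier results of these data known. The fit was tested on simulated data with known differences. Alternatives were other arrays in the fit, scaling, array weights, robust or unmoderated variances, a span filter in place of low-signal filtering, a replicate block, other probe sets and leaving out each array. A trend with intensity needs a level and was replaced by robust variances.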

Additional observations from a re-analysis of the deposited data

Results flagged for a closer look

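The response to low Pi differed between PB1 roots and shoots in 1575 probe sets by a test of the difference itself, and in 796 of them at least 2-fold. The same test between genotypes called 2104 probe sets, where the tissue difference was not the same in PB1 and in Dular. Among named genes the largest of these, as PB1 minus Dular in log2, were NAS1 at 10.49, NAS2 at 8.93, YSL15 at 6.71 and Os06g40070 at 5.22 on the positive side. On the negative side were Os04g49194, annotated as a naringenin 2-oxoglutarate dioxygenase, at -7.41, the BURP domain gene Os06g19800 at -6.89, the dirigent gene Os10g18760 at -6.21, the isoflavone reductase gene Os01g01660 at -5.99, NRT2.2 at -5.36 and the aldolase gene Os08g02700 at -5.30. Of these 10, NRT2.2 and Os06g40070 were also called within PB1. Os10g18760 was flat in PB1, with values between -0.04 and 0.01 on the 12 arrays, and differed by 6.22 in Dular.

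Signal outside the transcripts of the plant stood out in 2 sets of control probe sets. Poly-A spikes had a median of -5.22 on PB1 shoot +Pi replicate 2, against -0.89 to 0.26 on the other 11 PB1 arrays. Their median tissue difference was -1.47 with that array and 0.10 without it. Hybridization spikes, added after labelling, had a median tissue difference of 0.56 over 27 probe sets, and of 0.77 without the same array. They lay at -0.02, 0.04 and -0.02 in PB1 roots at −Pi, against -0.41, -0.31 and -0.44 in PB1 roots at +Pi. Whether the handling of these arrays bears on the transcripts was not tested.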

How the results depend on the processing

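The PB1 count of 1575 became 2994 (933 above and 2061 below) with the spread of all 24 arrays, 3055 (1036 and 2019) with array weights and 981 (297 and 684) without moderation. Quantile normalization gave 1399, of which 1026 were among the 1575, and the span filter gave 1660, of which 1253 were. At 2-fold, quantile normalization gave 744, with 593 of the 796, and the span filter 1111, with all 796. Leaving out 1 array gave 905 to 1581, with 1044 without PB1 root +Pi replicate 2, 1046 without PB1 root −Pi replicate 2 and 905 without PB1 shoot +Pi replicate 1. The count at 2-fold, 796, became 1388 with 24 arrays, 1316 with array weights, 1213 at 1.5-fold and 274 at 4-fold, and 517 to 808 without 1 array (517 without PB1 shoot +Pi replicate 1). PB1 against Dular, 2104, became 3542 with array weights and 1742 to 2168 without 1 PB1 array. List calls, 36, were 25 to 36 without 1 array. Other probe sets reversed NIA1 (0.023) and GLO5 (-1.39 and -1.44). Of 53 named or list genes called, 35 were called under every alternative of scaling, fit and arrays and none changed sign there. With other probe sets counted too, 28 were, since each of the 13 called genes with another probe set had at least 1 that was not called in the same direction. The values show no clear pairing of arrays by replicate number (mean r 0.0419 over 18 same-numbered pairs, range -0.106 to 0.400, 3 over 0.1). Mean r was -0.0213 between other numbers, and 6 of 12 arrays were most like those of their own number. Such values cannot decide whether seedlings were shared. With the replicate number as a block, calls were 1193 in PB1, 634 at 2-fold, 1988 against Dular (991 above and 997 below) and 30 in the lists. Of the 53 genes 9 were not called, NRAMP4, PHO1-3 and Os01g52230 among them (adjusted p = 0.0529, 0.0714 and 0.0573 by limma). Signal over background is unknown here, so a flat probe set limits what can be said of its transcript.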

Other observations

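Some groups of genes were looked at after their values had been seen, so their counts are descriptions, to be read beside the 0.828% of all probe sets called above and the 1.92% called below. The phosphatase, pyrophosphatase, symbiosis and protease annotations that follow came from the study's list of genes rising in Dular roots. Counts of these families are therefore no independent evidence of a rise in roots. Genes annotated as Ser/Thr protein phosphatase family were 4 of 9 called with the larger change in PB1 roots. Of these, Os01g71420 at 1.87 (adjusted p = 0.0449, limma) lost its call without any 1 of 10 arrays. Its 3 other probe sets, at 1.84, 0.07 and 1.88, were not called. Besides Os10g02750 the called genes included Os11g05400, which read 2.56, 1.81 and 1.47 in roots at −Pi, against -2.97, -2.16 and -3.09 in roots at +Pi, while its shoots moved by 0.35 (difference 4.34 ± 0.44 SE; adjusted p = 0.00222, limma). Nucleotide pyrophosphatase/phosphodiesterase genes were called in 3 of 4, with Os12g38750 at 3.37 ± 0.49 and Os09g32840 at 2.96 ± 0.49 (SE; adjusted p = 0.0104 and 0.0171, limma), both rising in roots and, less, in shoots. A pair of genes with annotations from root symbiosis rose in roots alone, Os11g06180 (nodulation-signaling pathway 2) by 3.65 and Os06g02520 (interacting protein of DMI3) by 3.12, with differences of 3.71 ± 0.13 and 3.21 ± 0.32 (SE; adjusted p = 7.19e-06 and 0.00198, limma). Aspartyl protease genes Os10g39390 and Os10g39380 differed by 3.64 and 2.97.

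Genes of chloroplast function, low in roots throughout, fell in PB1 roots at −Pi in the 3 cases named here. GLK1, a factor of chloroplast development, read -2.95, -3.45 and -2.92 in roots at −Pi, against -1.91, -1.90 and -1.84 in roots at +Pi, with shoots between 1.05 and 1.43 at both Pi levels (difference -1.31 ± 0.21 SE; adjusted p = 0.0139, limma). CAO, the gene of chlorophyllide a oxygenase, differed by -1.07 ± 0.08 and LIR1, a light-induced gene, by -1.56 ± 0.22 (SE; adjusted p = 0.000511 and 0.00957, limma). The 9 shoot markers had no called tissue difference. In the photosynthesis list 1 of 15 was called above and none below, at a median of -0.06. Among WNK kinase genes 2 of 8 were called below, WNK7 at -1.71 and WNK8 at -1.88, and the call of WNK8 was lost without any 1 of 7 arrays. The enolase gene Os03g14450 rose by 0.98 in roots and 2.50 in shoots (difference -1.52 ± 0.18 SE; adjusted p = 0.00377, limma). The MtN3 family gene Os01g50460 moved in opposite directions, by 0.67 in roots and -1.27 in shoots (difference 1.94 ± 0.23 SE; adjusted p = 0.00464, limma).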
